A study of Mus musculus with 7 samples.

Results

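The neuregulin ligand gene Nrg1, the receptor genes Erbb2 and Erbb3, and the Schwann precursor genes Fabp7 and Ngfr were followed through neural crest cells (NCCs) of the mouse pharyngeal apparatus. These 5 genes were chosen by symbol, out of 32285 in the count tables, and none of them was used to define the cell classes. Droplet single-cell RNA sequencing had been run on EGFP-positive, DAPI-negative cells sorted from embryos of a mixed Swiss-Webster background. The 4 control libraries carried Wnt1-Cre/+;ROSA-EGFPf/+ and came from the anterior part of the embryo at E8.5 (1 library), the pharyngeal apparatus with heart at E9.5 (1 library), and arches 2 to 6 with heart at E10.5 (2 libraries). The 3 libraries labelled null carried the same Cre and reporter with a Tbx1 mutation and came from the pharyngeal apparatus with heart at E9.5 (1 library) or from the tissue below arch 1 with heart at E10.5 (2 libraries). Their titles read Tbx1null and the study's sample list gives Tbx1-/-, while their genotype field reads Tbx1+/-, so they are called null-labelled here. Wnt1-Cre marks the crest and also parts of the neural tube, so the sorted cells include neural cells, and mesoderm and pharyngeal ectoderm or endoderm are outside the lineage. Each library pooled embryos of a single genotype. The 10x kit was version 2 at E8.5, version 3.1 in the later controls and in null-labelled replicate 2 at E10.5, and version 3 in the other null-labelled libraries. By the study's methods the E8.5 library was also sequenced on another instrument and by another company than the later ones. Kit, sequencer, dissected tissue and stage cannot be told apart at E8.5, and kit and genotype cannot be told apart at E9.5. The labels word the E10.5 dissection differently for the 2 genotypes, while the study's methods describe a single one without the head and arch 1.

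Neuregulin is a ligand presented by axons and by other tissues to crest cells and their glial descendants. ErbB3 binds it but has a weak kinase, and signals by pairing with ErbB2, which binds no ligand of its own. Fabp7, or brain lipid-binding protein, marks radial glia and Schwann cell precursors, and Ngfr, the p75 neurotrophin receptor, is a surface marker of migrating crest. Sox10 is the transcription factor that crest progenitors keep when they take the glial, melanocytic or autonomic path and lose as they become mesenchyme.

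On mm10 (GENCODE M21 annotation), Nrg1 lies on chromosome 8 from 31814551 to 32884029 on the minus strand, a long gene with many isoforms that 3′ counts do not resolve. Erbb2 lies on chromosome 11 from 98412470 to 98437716 (plus strand) and Erbb3 on chromosome 10 from 128567523 to 128589652 (minus strand). Fabp7 lies on chromosome 10 from 57784881 to 57788450 (plus strand) and Ngfr on chromosome 11 from 95568818 to 95587735 (minus strand). Counts are unique molecular identifiers (UMIs), 1 per captured 3′ end, so levels were not scaled by gene length.

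The libraries held 140264662 to 234844769 UMIs, and 5587 to 9557 cells each were kept. Cells with at least 2 Sox10 UMIs were called Sox10 cells (7065 of 53546 kept). Cells with 0 Sox10 UMIs and at least 3 UMIs over a marker trio were called mesenchymal-marker (Twist1, Prrx1, Prrx2), progenitor-marker (Sox2, Sox3, Pax6) or neuron-marker (Elavl3, Elavl4, Stmn2) cells. At most 1 UMI was allowed over the mesenchymal genes in the neural classes. Mesenchymal-marker cells could hold at most 1 UMI over the progenitor and 1 over the neuron genes, and progenitor-marker cells at most 1 over the neuron genes. Sox10 and neuron-marker cells had no limit on the progenitor genes, and Sox10 cells none on any trio. The part of these unequal limits in the class differences was not tested. The classes are ranges of marker UMIs, and 25 to 640 Sox10 cells per library sat at exactly 2 Sox10 UMIs, with 53 to 871 cells just outside at 1 UMI. At E8.5, 85 of the 176 neuron-marker cells sat at exactly 3 neuron gene UMIs, and their median progenitor gene count was 4 UMIs beside 4 of the neuron genes, so that class was not clearly separate from the progenitor-marker cells (median of 5) there. Of kept cells, Sox10 cells made up 36.0% at E8.5 and, at E9.5, 16.3% (control) and 11.4% (null-labelled). For E10.5 the shares were 3.02% and 5.75% (controls) and 15.1% and 11.1% (null-labelled). Their median UMI count over the mesenchymal genes was 5 at E8.5, 2 at E9.5 and 0 to 1 at E10.5, so the early Sox10 cells also carried mesenchymal transcripts. Of a glial crest list, 25 of 26 genes, among them Foxd3 and Cdh19, were higher in Sox10 than in mesenchymal-marker cells, beside 14.8% over all genes. Against neuron-marker cells Pou3f1 was lower (-3.73), Gap43, Lgi4 and Tfap2b were not called, and the other listed genes were higher. Against progenitor-marker cells Egr2, Pou3f1, Sox9 and Ttyh1 were not called and the others were higher. The list was chosen with earlier results of these data known, so it is no independent check of the class. Null-labelled replicate 2 at E10.5 stood apart, with 10.1 to 11.5 CPM (counts scaled to 1000000 UMIs) of summed haemoglobin genes in every class, against at most 4.05 elsewhere, and with 23.6 CPM of the neuron genes in its mesenchymal-marker cells, against 1.9 to 10.5 elsewhere. Tbx1, the gene named by the genotype, reached 9.0 and 13.2 CPM in the mesenchymal-marker cells of the 2 null-labelled libraries at E10.5 and 7.9 and 4.7 CPM in the controls. Progenitor-marker cells had 0.0764 and 0 CPM against 2.19 and 2.13 CPM (called lower, adjusted p = 0.0459 in edgeR's quasi-likelihood test). Both null-labelled progenitor-marker sums held under 3 UMIs of Tbx1, so no size is given for that difference. Whether the allele removes the counted 3′ end was not stated in the sources used here, so these levels do not check the labels.

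Levels are given as CPM of the UMIs summed over all cells of a class in a library, so that each library counts once. The classes were compared with edgeR's quasi-likelihood test on those sums with library as a block, and a gene was called at a Benjamini-Hochberg adjusted p under 0.05 over all genes tested. Differences are log2 values with their standard error. Of 15330 genes tested, 28.9% were called between Sox10 and mesenchymal-marker cells (14.8% higher and 14.2% lower in Sox10 cells), where 4 of the 5 genes were higher and 0 lower. Between Sox10 and progenitor-marker cells 47.8% were called (26% higher and 21.7% lower), with 3 of the 5 higher and 2 lower. Between Sox10 and neuron-marker cells 62.6% were called (33.4% higher and 29.2% lower), with 3 of the 5 higher and 1 lower. Intervals on single levels cover counting error only, and 3 UMIs were taken as the floor below which no plain ratio of 2 levels was formed. The edgeR differences, and the subset ratios with their pseudocount, also used sums at or under that floor.

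Nrg1, which encodes the ligand, was highest in the neuron-marker cells of every library and was at or under the floor of 3 UMIs in 3 of the 7 Sox10 sums. In neuron-marker cells it reached 3.35 CPM at E8.5, 10.7 in the control and 5.68 in the null-labelled library at E9.5, 6.80 and 11.04 in the E10.5 controls, and 5.73 and 7.50 in the null-labelled E10.5 libraries. In Sox10 cells the same order of libraries gave 0.254, 0.151, 0.0377, 0.196, 0.293, 0.297 and 2.11 CPM, from 14, 5, 1, 1, 3, 10 and 47 UMIs. The neuron-marker and Sox10 ranges did not overlap, and only null-labelled replicate 2 at E10.5 was above 0.297 CPM in Sox10 cells. Of its 47 UMIs, 45 lay in Sox10 cells that also held at least 3 UMIs of the neuron genes (3.63 CPM, against 0.203 CPM in the other Sox10 cells of that library). In its cells with exactly 2 Sox10 UMIs the level was 17.2 CPM. The neuron gene trio summed to 234.8 CPM in the Sox10 cells of that library and to 12.8 to 94.3 CPM in those of the others, and its part in the Nrg1 level was not tested.

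Progenitor-marker cells held 0.662 CPM of Nrg1 at E8.5 and 1.43 to 4.48 CPM in the other libraries. Mesenchymal-marker cells varied more between libraries, with 0.519 CPM at E8.5, 0.212 (control) and 0.115 (null-labelled) at E9.5, and 2.87, 5.09 (controls), 0.742 and 3.18 (null-labelled) at E10.5. Every E10.5 mesenchymal level was therefore above both E9.5 levels, a difference that was not tested. In edgeR's test with Benjamini-Hochberg adjustment, Nrg1 was lower in Sox10 cells than in neuron-marker cells by a log2 difference of -3.90 (SE 0.66, adjusted p = 2.94e-05) and than in progenitor-marker cells by -2.61 (SE 0.66, adjusted p = 0.00247). Without null-labelled replicate 2 at E10.5 these were -4.70 and -3.40. Sox10 sums at or under the floor entered these fits, so the sizes are uncertain. The difference from mesenchymal-marker cells, -1.59 (SE 0.66), did not pass (adjusted p = 0.0776, edgeR), and passed without null-labelled replicate 2 at E10.5 (-2.20) and without the null-labelled library at E9.5 (-1.67).

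**Figure D1:**
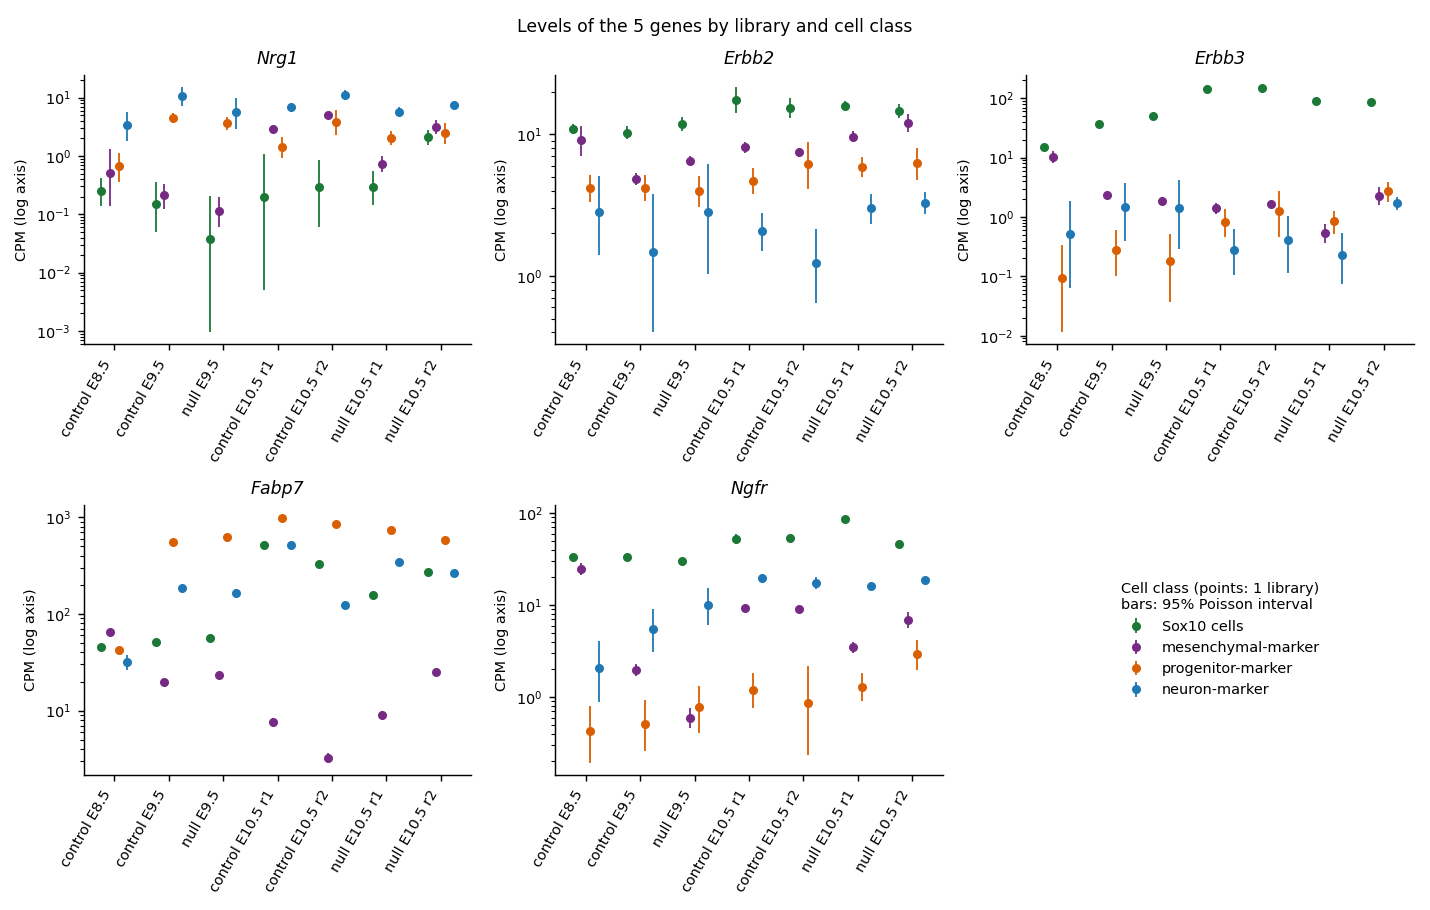
Level of each of the 5 genes in CPM (log axis) by library, with 1 point per library and cell class and bars for the 95% Poisson interval. Erbb3 is highest in Sox10 cells (15.1 to 149 CPM), Nrg1 in neuron-marker cells (3.35 to 11.04 CPM), and Fabp7 in progenitor-marker cells from E9.5 on (549 to 987 CPM).

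Erbb2, the co-receptor, was present in every class, and was highest in Sox10 cells in all 7 libraries. Sox10 cells held 10.97 CPM at E8.5, 10.3 (control) and 11.9 (null-labelled) at E9.5, and 17.6, 15.4 (controls), 15.8 and 14.7 (null-labelled) at E10.5. Mesenchymal-marker cells held 4.86 to 12.0 CPM, progenitor-marker cells 3.99 to 6.23 CPM and neuron-marker cells 1.24 to 3.27 CPM. The Sox10 range overlapped the mesenchymal range but neither neural range. Within single libraries the ratio of Sox10 to mesenchymal-marker cells was 1.21 at E8.5, 2.11 and 1.83 at E9.5 (control, null-labelled), 2.17 and 2.07 in the E10.5 controls, and 1.64 and 1.22 in the null-labelled E10.5 libraries. By edgeR's quasi-likelihood test with Benjamini-Hochberg adjustment Erbb2 was higher in Sox10 cells than in mesenchymal-marker cells by 0.76 (SE 0.12, adjusted p = 7.06e-05), than in progenitor-marker cells by 1.54 (SE 0.13, adjusted p = 3.65e-09) and than in neuron-marker cells by 2.66 (SE 0.15, adjusted p = 1.2e-11).

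Erbb3, the receptor that binds neuregulin, was the member most concentrated in Sox10 cells. Its level there was 15.1 CPM at E8.5, 36.6 (control) and 51.3 (null-labelled) at E9.5, 145 and 149 in the E10.5 controls, and 91.3 and 87.3 in the null-labelled E10.5 libraries. Mesenchymal-marker cells held 10.2 CPM at E8.5 and 0.538 to 2.37 CPM afterwards. Progenitor-marker cells held 0.0946 to 2.71 CPM and neuron-marker cells 0.227 to 1.70 CPM, with the highest value of both in null-labelled replicate 2 at E10.5. The ratio of Sox10 to mesenchymal-marker cells was 1.48 at E8.5, 15.5 and 27.3 at E9.5 (control, null-labelled), and 103, 90.5, 169.7 and 38.1 at E10.5 (2 controls, then 2 null-labelled). At E8.5 the gene was thus closest between the 2 classes, though still higher in Sox10 cells, and from E9.5 on the ranges were far apart. The edgeR difference with Benjamini-Hochberg adjustment was 5.01 against mesenchymal-marker cells (SE 0.61, adjusted p = 2.36e-06), 6.83 against progenitor-marker cells (SE 0.68, adjusted p = 4.42e-08) and 6.96 against neuron-marker cells (SE 0.75, adjusted p = 7.88e-08). The first was 5.62 without the E8.5 library and the last 7.69 without null-labelled replicate 2 at E10.5.

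The share of cells with an Erbb3 UMI was compared after each cell was thinned to 5000 UMIs, since depth differed between classes. After thinning, 6.96% of Sox10 cells at E8.5 held an Erbb3 UMI, 14.6% and 22.4% at E9.5 (control, null-labelled), 46.4% and 52.6% in the E10.5 controls, and 36.5% and 34.3% in the null-labelled E10.5 libraries. Without thinning the shares were 33.6%, 56.2%, 62.0%, 89.2%, 87.3%, 83.6% and 82.6% in that order. The exact 95% intervals of the thinned shares ran from 39.3% to 53.7% and 48.2% to 56.9% in the E10.5 controls and from 33.8% to 39.3% and 30.8% to 37.9% in the null-labelled libraries. Mesenchymal-marker cells, with median depths of 16444.5 to 25109 UMIs beside 18493 to 28777.5 in Sox10 cells, gave 6.27% at E8.5 and 0.291% to 1.45% later, and the neural classes gave 0 to 0.940%. The Sox10 shares lay above these background shares in every library, although by little at E8.5. For Erbb2 the thinned share in Sox10 cells was 4.47% to 11.2% (22.9% to 35.3% unthinned) against 2.57% to 5.96% in mesenchymal-marker cells (11.4% to 22.7% unthinned), and for Nrg1 it was 0 to 0.696%. Thinning left out 0 to 11 Sox10 cells per library.

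Both receptor transcripts were seen in the same thinned cell in 0.540% to 5.10% of Sox10 cells (9.24% to 32.1% unthinned). The thinned share was 0.721 to 1.27 times the product of the single shares, and the unthinned share 1.04 to 1.12 times. Of Sox10 cells with an Erbb2 UMI, 37.0% at E8.5 and 60.9% to 100.0% later also had an Erbb3 UMI without thinning, while 24.8% to 38.8% of those with Erbb3 had Erbb2. These shares describe detection at this depth.

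Fabp7, the fatty acid binding protein of radial glia and Schwann cell precursors, was highest in progenitor-marker cells from E9.5 on and in mesenchymal-marker cells at E8.5. Its upstream region is shown because Fabp7 was the member called in the test of genotype by class (Sox10 against mesenchymal-marker cells), a call that was lost without control replicate 2 at E10.5. It was taken from RefSeq on GRCm38.p6 at chr10:57784673-57784972 on the plus strand, from 250 bases before to 50 bases after the annotated start, and a search for the SOX-like letters ACAAAG and ACAATG on both strands found neither, so no letters are in capitals.
Fabp7 promoter: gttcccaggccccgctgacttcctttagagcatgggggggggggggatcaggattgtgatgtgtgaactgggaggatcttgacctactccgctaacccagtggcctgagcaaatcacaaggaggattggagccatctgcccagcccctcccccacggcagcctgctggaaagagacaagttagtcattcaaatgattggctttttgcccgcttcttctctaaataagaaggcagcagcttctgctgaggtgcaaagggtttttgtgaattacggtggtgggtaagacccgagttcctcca
Of 32851 promoters of the same length, 18.7% held ACAAAG, 12.6% held ACAATG and 28.6% held either. Promoters for 3 of the 5 genes were matched (Erbb2, Fabp7 and Ngfr), and the Erbb2 and Ngfr windows held neither hexamer. GC content was 54.0% for Fabp7, 66.0% for Erbb2 and 71.7% for Ngfr.

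In Sox10 cells Fabp7 stood at 45.0 CPM at E8.5 and at 51.5 (control) and 56.5 (null-labelled) at E9.5. At E10.5 it was 522 and 325 in the controls, and 157 and 270.4 in the null-labelled libraries. Mesenchymal-marker cells held 64.4 CPM at E8.5, 19.6 (control) and 23.4 (null-labelled) at E9.5, 7.71 and 3.25 in the E10.5 controls, and 9.09 and 25.0 in the null-labelled E10.5 libraries. The E8.5 library was the only one where mesenchymal-marker cells lay above Sox10 cells, with a ratio of 0.698, and from E9.5 on the ratio was 2.42 to 100.0. Progenitor-marker cells held 42.6 CPM at E8.5 and 549 to 987 CPM later, and neuron-marker cells 31.7 CPM at E8.5 and 124 to 509.9 CPM later. By edgeR's quasi-likelihood test with Benjamini-Hochberg adjustment, Fabp7 was higher in Sox10 than in mesenchymal-marker cells by 2.69 (SE 0.79, adjusted p = 0.0126) and lower than in progenitor-marker cells by -1.75 (SE 0.68, adjusted p = 0.0381), and its difference from neuron-marker cells was -0.24 (SE 0.67, adjusted p = 0.775). The first of these differences ranged from 2.21 to 3.64 when 1 library was left out, and was 3.64 without the E8.5 library. Its call was lost without control replicate 1, null-labelled replicate 1 or null-labelled replicate 2 at E10.5 (edgeR adjusted p from 0.05004 to 0.0561). The call of the second was lost without either library at E9.5 or either null-labelled library at E10.5 (edgeR adjusted p from 0.0585 to 0.114).

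Ngfr, the low-affinity neurotrophin receptor, was highest in Sox10 cells in all 7 libraries. It stood at 33.8 CPM at E8.5, 33.6 (control) and 30.3 (null-labelled) at E9.5, 52.6 and 53.7 in the E10.5 controls, and 87.3 and 46.3 in the null-labelled E10.5 libraries. Mesenchymal-marker cells held 24.8 CPM at E8.5, 1.99 (control) and 0.595 (null-labelled) at E9.5, 9.23 and 9.002 in the E10.5 controls, and 3.49 and 6.94 in their null-labelled counterparts. Progenitor-marker cells were at 0.426 to 2.91 CPM. Neuron-marker cells held 2.06 CPM at E8.5, 5.52 and 9.93 at E9.5, and 16.1 to 19.6 at E10.5, below the Sox10 level of the same library in every case. In edgeR with Benjamini-Hochberg adjustment it was higher in Sox10 than in mesenchymal-marker cells by 3.004 (SE 0.49, adjusted p = 7.05e-05), than in progenitor-marker cells by 5.63 (SE 0.58, adjusted p = 7.62e-08), and than in neuron-marker cells by 2.07 (SE 0.48, adjusted p = 0.0008).

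The level of each gene was then read against the number of Sox10 UMIs in the cell. Erbb3 was higher at each step of Sox10, from 58.8 and 67.6 CPM at 1 Sox10 UMI to 168 and 173 CPM at 10 or more in the E10.5 controls, and from 15.4 and 3.35 to 97.7 and 98.7 CPM in the null-labelled E10.5 libraries. At exactly 2 Sox10 UMIs it was 82.7 and 116 CPM in the controls, and 78.4 and 15.6 CPM in the null-labelled libraries, so cells just inside the gate were above those just outside in all 4 libraries. Deeper cells hold more Sox10 UMIs, and the median depth of the bins at E10.5 ran from 14594 to 32360 UMIs. Ngfr was highest at 3 to 4 Sox10 UMIs in both E10.5 controls (74.0 and 60.1 CPM) and in null-labelled replicate 1 (94.3 CPM), and at 10 or more in null-labelled replicate 2 (50.9 CPM). Fabp7 in the null-labelled E10.5 libraries was lower at 2 Sox10 UMIs (159.6 and 154.5 CPM) than in cells with 0 (333.1 and 274.5 CPM), where progenitor-marker cells are found, while in the E10.5 controls it was higher at 2 (366.3 and 275.9 CPM) than at 0 (347.5 and 67.2 CPM).

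**Figure D2:**
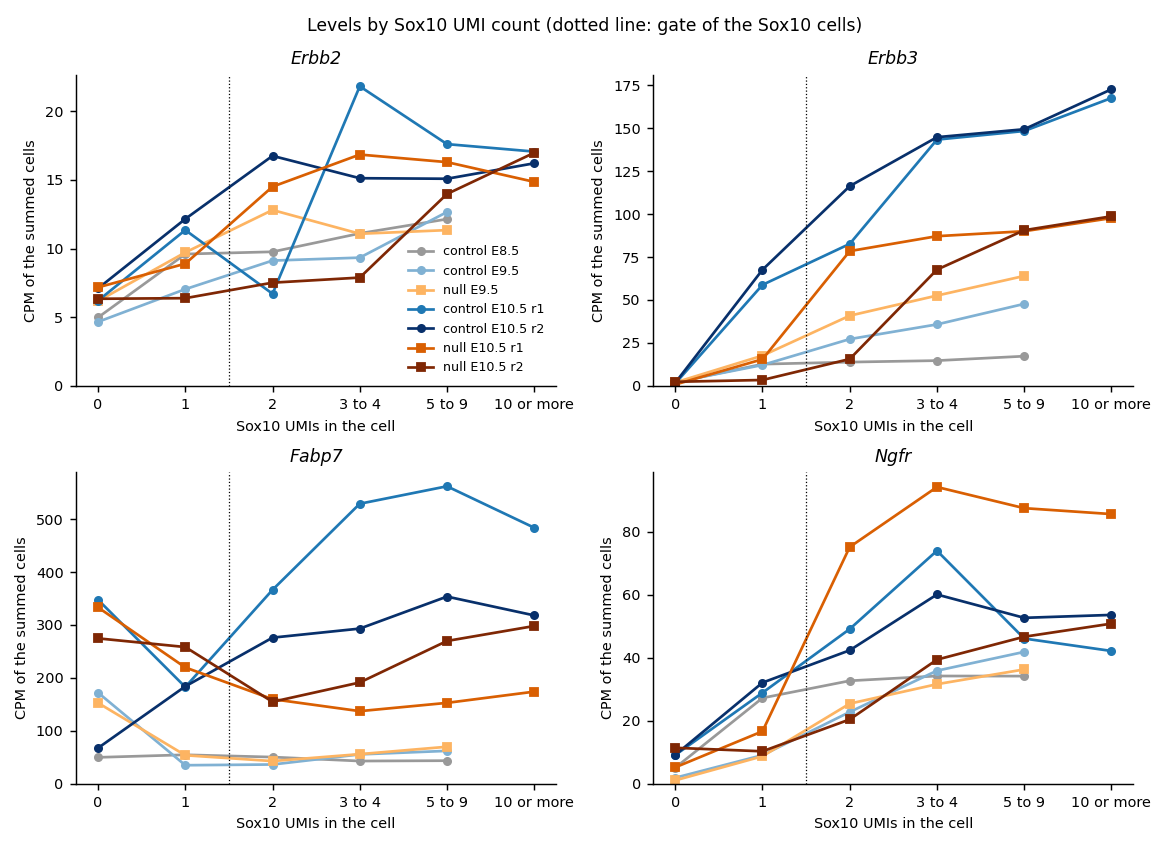
Level in CPM of Erbb2, Erbb3, Fabp7 and Ngfr over cells binned by their Sox10 UMI count, with 1 line per library and a dotted line at the gate of 2 UMIs. Erbb3 is higher at each step of Sox10 in all 7 libraries, up to 168 and 173 CPM in the E10.5 controls and 97.7 and 98.7 CPM in the null-labelled E10.5 libraries at 10 or more UMIs, and bins with under 20 cells are not drawn.

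**Figure D3:**
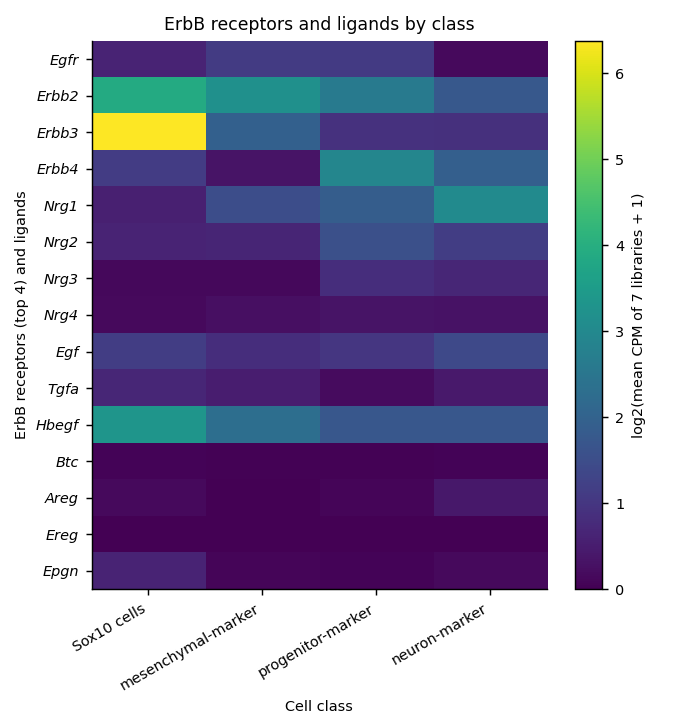
Mean CPM over 7 libraries, as log2(CPM + 1), of 4 ErbB receptor genes and 11 ligand genes in 4 cell classes. Erbb3 (82.2 CPM) and Erbb2 (13.8 CPM) are the brightest receptors in Sox10 cells and Erbb4 (6.61 CPM) in progenitor-marker cells, beside Nrg1 in neuron-marker cells (7.25 CPM).

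Of the ErbB receptor list, 3 of 4 genes were higher in Sox10 than in mesenchymal-marker cells and 0 were lower, beside 14.8% and 14.2% over all genes, with a median difference of 1.63 against -0.02. Erbb4, the third of them, averaged 1.18 CPM in Sox10 cells and 0.270 CPM in mesenchymal-marker cells (2.50, SE 0.37, edgeR adjusted p = 2.73e-05) but 6.61 CPM in progenitor-marker cells (-2.35, SE 0.32, adjusted p = 3.63e-06). Egfr averaged 0.542 CPM in Sox10 cells and was not called against mesenchymal-marker cells. Against progenitor-marker cells 2 receptor genes were higher and 2 lower (Egfr -1.21, Erbb4 -2.35), beside 26% and 21.7% over all genes. Against neuron-marker cells 3 were higher and only Erbb4 was lower (-1.29), beside 33.4% and 29.2% over all genes.

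Of 11 ErbB ligand genes 7 were tested, and 2 were higher in Sox10 than in mesenchymal-marker cells, with 0 lower and a median of 0.45, beside 14.8% higher and 14.2% lower over all genes. They were Hbegf, the heparin-binding EGF-like factor, at a mean of 8.96 CPM in Sox10 cells (1.08, SE 0.22, edgeR adjusted p = 0.000852), and Epgn, epigen, at 0.550 CPM (2.57, SE 0.44, adjusted p = 0.000135). Against progenitor-marker cells 3 ligand genes were lower, Nrg1, Nrg2 (-1.61) and Nrg3 (-3.51), and 3 were higher, Hbegf, Epgn and Tgfa, beside 21.7% lower and 26% higher over all genes. In neuron-marker cells the mean levels of the neuregulin genes were 7.25 (Nrg1), 1.22 (Nrg2), 0.602 (Nrg3) and 0.242 CPM (Nrg4), and in Sox10 cells none averaged over 0.547 CPM. Of 10 genes that shed the ligand or damp the receptor, 2 were higher in Sox10 than in mesenchymal-marker cells and 0 lower, beside 14.8% higher over all genes, with a median of 0.03 against -0.02. They were Lrig1, a negative regulator of ErbB receptors (1.39), and Bace1, a protease that cleaves neuregulin (0.26).

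Of 10 neurotrophin pathway genes 4 were higher and 4 lower in Sox10 than in mesenchymal-marker cells, with a median of 0.63, beside 14.8% higher and 14.2% lower over all genes. The higher ones included Ngfr and the receptor genes Sorcs2 (1.01) and Sort1 (0.62). The lower ones were the ligand genes Bdnf (-2.96), Ntf3 (-3.66) and Ntf5 (-2.49) with the receptor gene Ntrk2 (-2.30). Bdnf averaged 23.2 CPM and Ntf3 19.6 CPM in mesenchymal-marker cells, against 1.86 and 1.84 CPM in Sox10 cells. Of 9 fatty acid binding protein genes only 3 had enough counts, and Fabp5, at a mean of 1717 CPM in Sox10 cells, and Fabp3, at 18.6 CPM, were higher there than in mesenchymal-marker cells as Fabp7 was (0.76 and 1.05).

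The stage comparison set the 4 E10.5 libraries against the 2 at E9.5 in Sox10 cells, with genotype as a term, and 24.4% of 13733 genes were called (12.9% higher and 11.4% lower at E10.5). Erbb3 was higher at E10.5 by 0.97 (SE 0.26) and Fabp7 by 2.05 (SE 0.33), with adjusted p = 0.0197 and 0.00222 by edgeR's quasi-likelihood test and Benjamini-Hochberg adjustment. Erbb2 (0.13, adjusted p = 0.656) and Ngfr (0.51, adjusted p = 0.169) did not pass the same edgeR test, and Nrg1 had too few counts to enter it. Both calls were lost without the control library at E9.5, where Erbb3 gave 0.41 (adjusted p = 0.403) and Fabp7 1.52 (adjusted p = 0.0674), and Erbb3 was 1.60 without the null-labelled library at E9.5 and was also lost without control replicate 1 at E10.5 (0.89, adjusted p = 0.0572, edgeR). Of the glial crest list 17 of 26 genes were higher and 1 lower at E10.5, while all 3 mesenchymal gate genes were lower. All 5 melanoblast genes (Dct 7.74), all 7 autonomic genes (Hand2 3.89) and 3 of 7 sensory genes were also higher at E10.5 by the same test. So were all 3 neuron gate genes (Elavl3 3.98, Stmn2 3.60). Of the progenitor gate genes, Sox2 (1.23) and Sox3 (2.55) were higher and Pax6 (-1.92) was lower. The part of all these markers in the Erbb3 and Fabp7 differences was not tested. The same edgeR test called Adam19, a protease that processes neuregulin (1.64), Lrig1 (1.48), Bace1 (0.68), Hbegf (0.83), Sort1 (1.63), Sorcs2 (1.503) and Fabp3 (0.96) higher, and Ntf3 (-3.31) lower. The dissected tissue differed between the stages and cannot be told apart from them.

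For genotype, the null-labelled libraries were set against the controls at E10.5, the only stage with 2 libraries in each. In Sox10 cells 0.0154% of 12990 genes were called (2 genes), and 1246 had an unadjusted p under 0.05. None of the 4 members tested was called in this fit. On simulated counts the same contrast recovered 0% of genes changed 2-fold, so the absence of a call does not show the absence of a difference. With the replicate number as a block Erbb3 was called, though no label pairs the libraries by that number. With no filter on low counts Fabp7 was called. Erbb3 was lower in both null-labelled libraries (91.3 and 87.3 CPM) than in both controls (145 and 149 CPM), a log2 difference of -0.76 (SE 0.20, adjusted p = 0.360, edgeR). Fabp7 was likewise lower without overlap, 157 and 270.4 CPM against 522 and 325 CPM (-1.03, SE 0.31, adjusted p = 0.401, edgeR). The share of all genes without overlap is not given here, and with 2 against 2 libraries an exact permutation p cannot be below 0.3333. Erbb2 differed by -0.15 (SE 0.24) and Ngfr by 0.30 (SE 0.30), and the Ngfr levels overlapped since 1 null-labelled library was above and the other below both controls. Of the E10.5 libraries, null-labelled replicate 1 was made with another kit version than the controls, and the study lists fewer somites for it than for either control. The part of kit and somite stage in these values was not tested. At E9.5, with 1 library of each genotype, the null-labelled library held more Erbb3 in Sox10 cells (51.3 against 36.6 CPM), the opposite order to E10.5. At E9.5 the kit differed between the genotypes as well. The edgeR test of that difference between stages, chosen after seeing the data, gave -1.19 for Erbb3 (SE 0.36, adjusted p = 1.0) and called 0.00692% of 14451 genes.

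Summed markers of other Sox10 descendants and classes also differed between these libraries. The 3 mesenchymal gate genes summed to 12.3 and 18.3 CPM in the Sox10 cells of the E10.5 controls and to 30.4 and 53.8 CPM in the null-labelled libraries, and none of the 3 was called by edgeR. The 5 melanoblast genes summed to 261.7 and 223.4 CPM in the Sox10 cells of the E10.5 controls and to 46.1 and 166.0 CPM in the null-labelled libraries. The 7 autonomic genes summed to 88.6 and 132.5 CPM in the controls and 234.8 and 257.1 CPM in the null-labelled libraries, and the 7 sensory genes to 56.9 and 70.6 CPM against 39.6 and 266.2 CPM. The 26 glial crest genes gave 2389 and 2472 CPM in the controls and 2635 and 2363 CPM in the null-labelled libraries. All members of these lists were detected in each of these 4 sums, and the part of these markers in the Erbb3 and Fabp7 values was not tested.

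In mesenchymal-marker cells at E10.5, 0.0528% of 15146 genes were called and 0 of the 5 members (1784 genes had an unadjusted p under 0.05). With the replicate number as a block, a pairing that no label gives, or with no filter on low counts, Nrg1, Fabp7 and Ngfr were called there. Fabp7 was higher in the null-labelled libraries by 1.45 (SE 0.51, adjusted p = 0.359), Ngfr lower by -0.996 (SE 0.30, adjusted p = 0.332) and Nrg1 lower by -1.31 (SE 0.60, adjusted p = 0.447), all by edgeR. Of these, only Ngfr and Fabp7 had levels that did not overlap between the genotypes, and those of Erbb2 (0.33, SE 0.22) did not overlap either. The share of all genes without overlap is not given here. With 2 against 2 libraries an exact permutation test over libraries cannot give a p below 0.3333. Without null-labelled replicate 2 the edgeR test called Nrg1 (-2.46) and Ngfr (-1.42), and without null-labelled replicate 1 it called Fabp7 (2.01), each fit leaving 1 null-labelled library that was assumed to vary as the controls did. In progenitor-marker cells 0.0703% of 12796 genes and 0 of 5 members were called, and in neuron-marker cells 0% of 13862 genes and 0 of 4 members (887 genes at an unadjusted p under 0.05, and 17 called by DESeq2). No gene of the ErbB, neurotrophin or fatty acid binding protein lists was called by edgeR between genotypes in any of the 4 classes with all 4 libraries, the filter on low counts and no replicate block. On simulated counts the contrast recovered 3% of genes changed 2-fold in mesenchymal-marker cells, and the neural classes were not simulated. The absence of calls therefore does not show that these genes were unchanged.

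Whether the genotype difference depended on the class was tested for Sox10 against mesenchymal-marker cells only, and Fabp7 was the member called. The difference of the null minus control change between Sox10 and mesenchymal-marker cells was -2.51 (SE 0.24, edgeR adjusted p = 0.0225), where 0.175% of 14847 genes were called. It was -2.18 (adjusted p = 0.113, edgeR) without control replicate 2 at E10.5. The neuron gene trio reached 23.6 CPM in the mesenchymal-marker cells of null-labelled replicate 2, whose Fabp7 was also the highest of the 4 (25.0 CPM), and its part was not tested. Nrg1 had 1 and 3 UMIs in the Sox10 sums of the controls, at or under the floor, so no size is given for it, and it did not pass (adjusted p = 0.132, edgeR). Ngfr (1.35, adjusted p = 0.467), Erbb2 (-0.51, adjusted p = 0.523) and Erbb3 (-0.07, adjusted p = 0.993) did not pass the edgeR test. Without null-labelled replicate 1 it called Erbb2 (-0.72), Erbb3 (-1.25) and Nrg1, and without null-labelled replicate 2 Nrg1 and Ngfr (2.12), again with 1 null-labelled library in each fit.

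**Figure D4:**
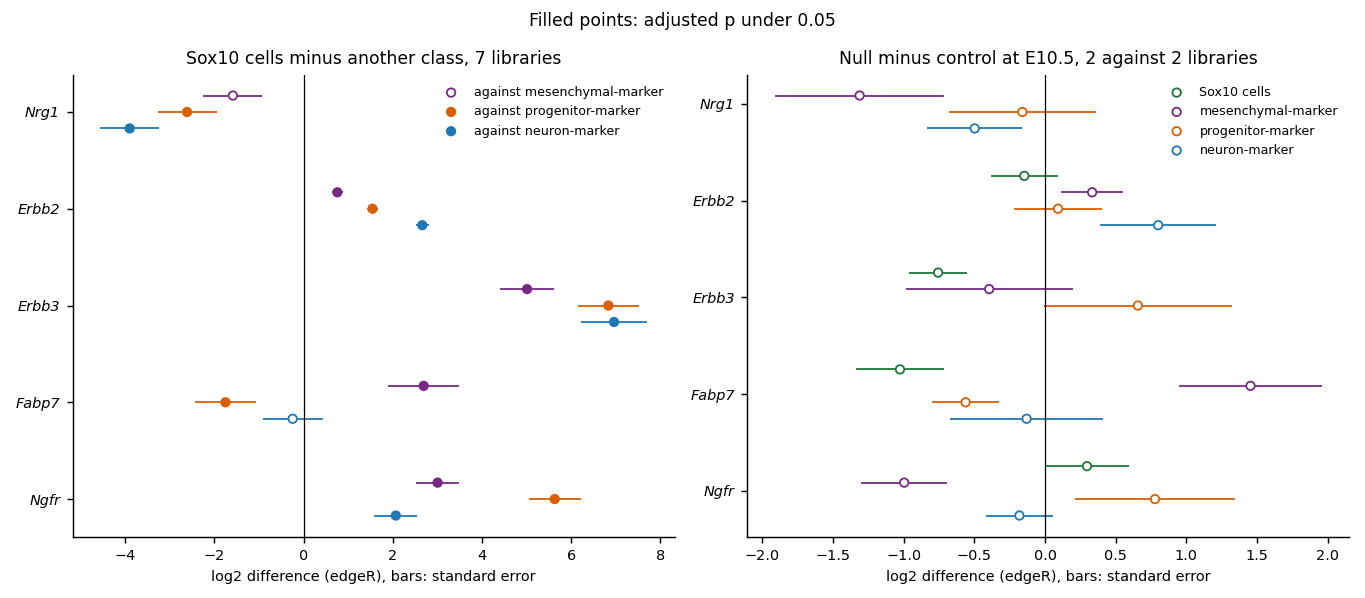
Log2 differences from edgeR with standard error bars. Left, Sox10 cells minus each other class over 7 libraries; right, null minus control at E10.5 in each class, where no member was called; filled points have an adjusted p under 0.05.

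Within the Sox10 cells, those that also held at least 3 UMIs of the neuron gene trio were set against the rest in the 6 libraries from E9.5 on. They made up 2.47% (control) and 2.11% (null-labelled) of Sox10 cells at E9.5, 20.7% and 15.9% in the E10.5 controls, and 26.5% and 50.3% in the null-labelled E10.5 libraries. Erbb3 was lower with the neuron genes in 6 of 6 libraries. The pairs were 31.2 against 36.8 CPM (control) and 39.3 against 51.6 CPM (null-labelled) at E9.5, 112 against 155 and 132 against 152 CPM in the E10.5 controls, and 90.3 against 91.7 and 77.5 against 99.6 CPM in the null-labelled E10.5 libraries. The mean log2 ratio was -0.28 ± 0.16 (SD). Erbb2 (-0.39 ± 0.36) and Fabp7 (-0.29 ± 0.40) were lower in 5 of 6, and Ngfr (0.05 ± 0.49) was higher in 2 of 6. In cells thinned to 5000 UMIs, a check chosen after seeing the data, Erbb3 was lower in 4 of 6 (-0.09). The exact sign-flip permutation test over libraries gave p = 0.03125 for Erbb3, the smallest that 6 libraries allow, and 0.130 after Benjamini-Hochberg adjustment over 25 tests, so it did not pass.

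Among neuron-marker cells, those with at least 2 UMIs of Isl1, a transcription factor of motor and sensory neurons, held more Nrg1 than the rest in 6 of 6 libraries. The pairs were 16.7 against 8.74 CPM (control) and 9.21 against 4.45 CPM (null-labelled) at E9.5, 27.0 against 5.11 and 20.1 against 8.40 CPM in the E10.5 controls, and 31.4 against 5.28 and 24.0 against 5.18 CPM in the null-labelled E10.5 libraries. The mean log2 ratio was 1.59 ± 0.68 (SD), with Fabp7 lower in 6 of 6 (-2.89 ± 0.68), and both had an exact permutation p of 0.03125 and 0.130 after adjustment. The cells with Isl1 were deeper, with median depths of 16700.5 to 26333.5 UMIs against 8222 to 14080 in the rest, and after thinning Nrg1 was still higher in 6 of 6 (1.51).

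Sox10 cells that also held at least 3 UMIs of the mesenchymal genes made up 73.8% at E8.5 and 47.3% and 48.7% at E9.5 (control, null-labelled), and 1.48% to 10.4% at E10.5. At E9.5 Erbb3 was 26.7 against 47.2 CPM in the control and 38.7 against 65.8 CPM in the null-labelled library, and Ngfr 21.0 against 47.1 CPM and 21.6 against 40.5 CPM, lower in both libraries in the cells with mesenchymal genes. At E8.5 the same division left Erbb3 at 14.8 against 16.1 CPM. In the E10.5 null-labelled libraries, the others with enough cells, Erbb3 was 95.6 against 91.0 and 80.1 against 88.3 CPM, and Ngfr 69.6 against 88.7 and 45.5 against 46.4 CPM, so Erbb3 was not lower in all. Over these 4 libraries from E9.5 on the mean log2 ratio was -0.40 ± 0.44 for Erbb3 and -0.60 ± 0.50 for Ngfr, and 4 libraries cannot give an exact p below 0.125.

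**Figure D5:**
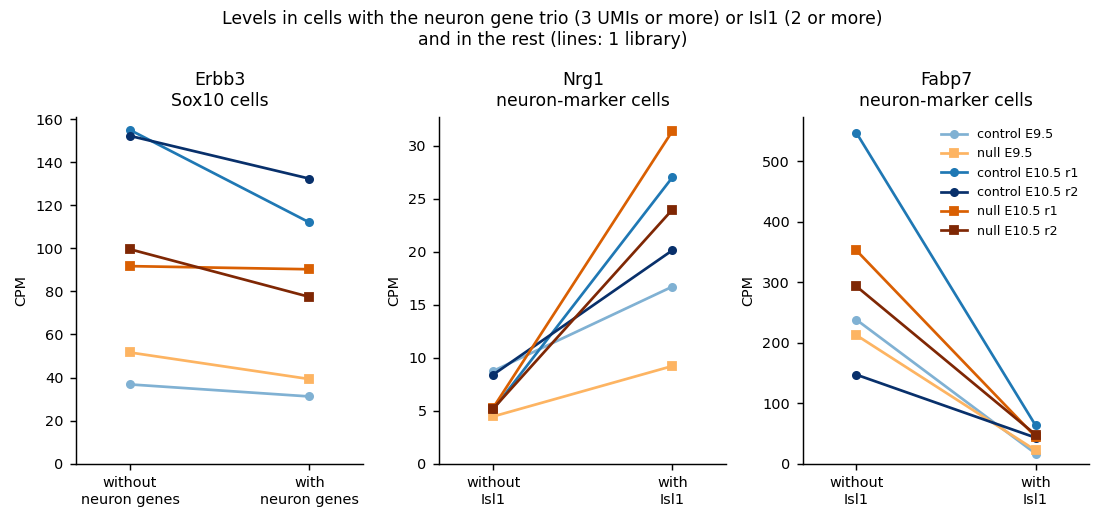
Level in CPM with and without at least 3 UMIs of the neuron gene trio (Sox10 cells) or at least 2 UMIs of Isl1 (neuron-marker cells), with 1 line per library. All 6 lines slope down for Erbb3 by neuron genes in Sox10 cells, and by Isl1 in neuron-marker cells all 6 slope up for Nrg1 and down for Fabp7.

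Across the 28 sums of 7 libraries and 4 classes, the genes whose log2(CPM + 1) followed each member most closely among 15773 genes were listed as a description, since sums of a library share its depth and handling. For Erbb3 they were Cdh19, a cadherin of Schwann cell precursors (Pearson r = 0.98), 1700019D03Rik (0.97) and Sphk1 (0.97), and for Erbb2 they were Rhbdf1 (0.94), Nid2 (0.93) and Spred1 (0.92). For Nrg1 they were Gadd45g (0.90), Serinc2 (0.90) and A330094K24Rik (0.89). For Fabp7 they were Dtx4 (0.94), Pax3 (0.92), a dorsal neural tube and crest factor, and Nrarp (0.91), a Notch target, and for Ngfr they included Jup (0.91) and Tnik (0.91).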

How the data were processed

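The count data were whole-number UMI counts per gene and cell, deposited as 1 matrix per library after the authors ran Cell Ranger 6.0.1 on the mm10 reference. Cells were kept where 1000 or more genes were seen and mitochondrial UMIs did not exceed 10%, after removal of the highest Scrublet scores (0.8% of barcodes per 1000 barcodes). At most 44 barcodes were shared by any pair of libraries, 0.410% of the smaller one at most. UMIs were summed per library and class (at least 20 cells) and tested with edgeR 4.0.16 in R 4.3.3 (TMM, filterByExpr, glmQLFTest), with library as a block in class contrasts, genotype and stage as terms in the stage contrast, and genotype by class in the interaction fit. CPM used all UMIs of a class. Subset ratios used a pseudocount of 1 CPM and an exact two-sided sign-flip test. Scanpy 1.11.5 and scipy 1.17.1 were used in Python 3.11.15, and gene positions came from GENCODE M21.

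On simulated counts, 66% of 200 genes changed 2-fold were recovered in the Sox10 against mesenchymal contrast (15330 genes), 44% in the stage contrast (13733 genes), 0% in the genotype contrast in Sox10 cells (12990 genes) and 3% in that in mesenchymal-marker cells (15146 genes). False calls among the unchanged genes numbered 5, 10, 0 and 3 in the same order.

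The 5 genes and all gene lists were chosen with earlier results of these data known. Beside the 5 genes, the text names gate genes, Sox10 and Tbx1 as checks, up to 4 genes of a list by mean CPM, every called receptor, ligand and neurotrophin gene, and up to 3 genes most like each member. Lrig1, Bace1 and Adam19 were named after their values were seen, and the glial crest genes as examples. The E8.5 library entered no test of stage. Alternatives were other gates, thinning, doublets kept, another cell filter, DESeq2 1.42.0, other size factors, no filter on low counts and leaving out each library. The genotype by stage test, the class contrasts at E10.5 alone and the thinned subsets were added after seeing the data. Proteins, isoforms and the promoters of Erbb3 and Nrg1 were not analysed here. A few listed genes, and 10 of the 25 subset tests, are not reported here.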

Additional observations from a re-analysis of the deposited data

Results flagged for a closer look

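Fabp7 showed opposite genotype differences at E10.5 in the 2 classes compared. In Sox10 cells the null-labelled libraries were lower and in mesenchymal-marker cells higher than the controls, and the difference between those differences was -2.51 on the log2 scale (SE 0.24, adjusted p = 0.0225, edgeR's quasi-likelihood test). Without control replicate 2 it was -2.18 and no longer called (adjusted p = 0.113, edgeR), and neither genotype difference was called on its own in the reported setting. With no filter on low counts both were called (-1.04 in Sox10 cells and 1.42 in mesenchymal-marker cells). With a replicate block, a pairing that no label gives, the mesenchymal one was called (1.44), and without null-labelled replicate 1 its size was 2.01. The highest mesenchymal level of Fabp7 at E10.5 (25.0 CPM) was in null-labelled replicate 2, the library that stood apart in haemoglobin and neuron genes, and the part of those transcripts was not tested.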

How the results depend on the processing

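The counts of called genes and some member values moved with the settings, and the cause was not tested. In all 77 counts or shares moved by over 1.5 times or by more than their spread. Genes called in Sox10 against mesenchymal-marker cells were 2714 with cells thinned to 5000 UMIs and 6932 with the 4 libraries at E10.5, and against progenitor-marker cells 4213 when thinned. The stage contrast called 1293 when thinned.

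The genotype contrasts in Sox10, mesenchymal-marker, progenitor-marker and neuron-marker cells called 23, 19, 33 and 5 genes when thinned, 69, 250, 29 and 17 by DESeq2, and 334, 656, 130 and 159 with no filter on low counts. In Sox10 cells the count was 19 with a gate of 1 UMI, 5 with 3, 9 with doublets kept, 0 with the other cell filter, 6 with DESeq2 size factors, 1 with a log2 minimum of 0.25 and detection in 10% of cells, and 0 with 6 libraries. It was 3 in mesenchymal-marker cells and 0 in progenitor-marker cells with 6 libraries, 28 and 3 in progenitor- and neuron-marker cells with gates of 5 UMIs, 0 in progenitor-marker cells with the other cell filter, and 1 in neuron-marker cells with doublets kept. The interaction of genotype and class called 85 (gate of 1), 13 (gate of 3), 17 (gates of 5), 14 (thinned), 82 (DESeq2) and 333 (no filter), and that of genotype and stage 5 (gate of 3), 8 (thinned), 3 (doublets kept), 2 (other cell filter), 6 (DESeq2), 3 (DESeq2 size factors) and 83 (no filter).

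The replicate numbers at E10.5 do not pair the libraries by any label, and deviations of libraries with the same number correlated at 0.126 to 0.307. With the replicate number as a block, 260, 483, 540 and 16 genes were called in the 4 classes, Erbb3 in Sox10 cells (-0.76) and Nrg1 (-1.44), Fabp7 (1.44) and Ngfr (-1.03) in mesenchymal-marker cells among them, and Fabp7 in neuron-marker cells turned to 0.18. It changed no other call of a member.

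Leaving out 1 library gave 526 to 4556 calls for stage, 23 to 139, 0 to 641, 64 to 336 and 8 to 727 for genotype in the 4 classes, 1 to 1289 for the class interaction and 0 to 25 for that with stage. Each library left out moved these counts by over 1.5 times, except control replicate 1 for genotype in mesenchymal-marker cells and both null-labelled E10.5 libraries for stage, and the lowest stage count was without the E9.5 control. The median shares of Sox10 cells with a UMI went without thinning from 7.24% to 25.0% (Erbb2), 34.3% to 82.6% (Erbb3), 43.0% to 84.7% (Fabp7) and 19.4% to 56.0% (Ngfr).

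Of values that changed sign, Fabp7 against neuron-marker cells was 0.42 with gates of 5 UMIs, 0.59 thinned and 0.098 at E10.5 alone. Genotype values turned to -0.097 for Erbb3 in progenitor-marker cells when thinned, 0.37 for Nrg1 there with gates of 5, and 0.020 for Ngfr in neuron-marker cells with 6 libraries. The Erbb3 interaction was 0.039 with doublets kept and 0.0066 with no filter. In subsets, Nrg1 with mesenchymal genes was 0.019 (pseudocount of 5), 0.32 (gate of 1), 0.16 (gate of 3), 0.62 (doublets kept) and 0.098 (thinned). Ngfr with neuron genes was -0.090 (gate of 3), -0.034 (doublets kept) and -0.10 (thinned), and with Isl1 -0.14 (gates of 5) and -0.027 (other cell filter). Leaving out 1 library also turned signs, with ranges of -0.25 to 0.69 for Ngfr by genotype in Sox10 cells, -1.54 to 0.39 for Erbb3 in mesenchymal-marker cells, -0.086 to 0.22 (Erbb2), -0.28 to 1.35 (Erbb3) and -0.83 to 0.51 (Nrg1) in progenitor-marker cells, and -0.80 to 1.23 for Fabp7 in neuron-marker cells. The stage value of Erbb2 ranged from -0.029 to 0.28, the interaction of Erbb3 with class from -1.25 to 0.85 and of Ngfr with stage from -0.066 to 0.91. In subsets the ranges were -0.15 to 0.11 (Nrg1, mesenchymal genes), -0.11 to 0.13 (Ngfr, neuron genes) and -0.026 to 0.26 (Ngfr, Isl1). No value that changed sign was called in the reported setting.

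With no filter on low counts, Fabp7 in Sox10 cells (-1.04), Nrg1 (-1.35), Fabp7 (1.42) and Ngfr (-1.03) in mesenchymal-marker cells, and the interactions of Nrg1 and Ngfr (1.43) were called. Nrg1 against mesenchymal-marker cells was called with a gate of 3 (-2.24), by DESeq2 (-1.84) and at E10.5 alone (-1.71). Few UMIs limit Nrg1 in Sox10 cells.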
